A study of Homo sapiens with 8 samples.

Results

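The cadherin and desmosome genes followed here are CDH1, CDH2, CDH3, DSC2, DSC3, DSG2, DSP, PKP2, PKP3 and JUP, 10 of the 19775 genes read on the arrays. They are a list of gene names, made when earlier results of these data were known. The arrays carried 20 probe sets (groups of short probes to a transcript) that named exactly 1 of these genes, among 41091 probe sets with 1 gene symbol. Each gene was read by its brightest probe set, the one with the highest mean over the 8 arrays, and the other 10 probe sets are given beside it. The cells were MDA-MB-453, an established human breast cancer line. They were held for 3 days in medium without phenol red that contained 5% serum stripped of steroids with charcoal and dextran. Vehicle, or 5a-dihydrotestosterone (DHT, a potent natural androgen) at 10 nM for 4, 16 or 48 h, was then added. There were 4 groups of 2 biological replicates, and the values are log2 signals, so a difference of 1 is a doubling of signal. No harvest time is recorded for the vehicle cultures, so DHT and time in culture cannot be told apart.

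Classical cadherins are single-pass proteins that join neighbouring cells through calcium-dependent contact between their outer domains. In adherens junctions their tails hold catenins, which connect them to actin. In desmosomes the desmogleins (DSG) and desmocollins (DSC) are the adhesive cadherins, plakoglobin (JUP) and the plakophilins (PKP) bind their tails, and desmoplakin (DSP) ties the plaque to keratin filaments. Plakoglobin is found in both kinds of junction. In breast epithelium CDH1 (E-cadherin) marks luminal cells, CDH3 (P-cadherin) marks myoepithelial and basal cells, and CDH2 (N-cadherin) is better known from mesenchymal and neural tissue.

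The promoter windows of JUP, DSC2 and DSG2 are shown because these 3 desmosome genes differed between 16 h and 4 h of DHT. JUP did so in the opposite direction from the others, and each gene was read by its brightest probe set. Each window runs from 250 bases before the outermost annotated start to 50 bases from it, 5′ to 3′ on the gene's strand, from RefSeq on GRCh38.p14. Capitals mark the E-box core CACCTG, which SNAI repressors bind, and the GC box GGGCGG, which SP factors bind, on either strand. The windows are chr17:41786662-41786961 (minus strand) for JUP, chr18:31102372-31102671 (minus strand) for DSC2 and chr18:31497927-31498226 (plus strand) for DSG2.
JUP: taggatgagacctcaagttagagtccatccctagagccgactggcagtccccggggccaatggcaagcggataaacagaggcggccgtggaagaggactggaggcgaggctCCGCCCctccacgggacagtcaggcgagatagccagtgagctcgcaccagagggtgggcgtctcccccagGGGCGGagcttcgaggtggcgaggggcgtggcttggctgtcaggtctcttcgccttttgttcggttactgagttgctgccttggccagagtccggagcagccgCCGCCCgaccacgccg
DSC2: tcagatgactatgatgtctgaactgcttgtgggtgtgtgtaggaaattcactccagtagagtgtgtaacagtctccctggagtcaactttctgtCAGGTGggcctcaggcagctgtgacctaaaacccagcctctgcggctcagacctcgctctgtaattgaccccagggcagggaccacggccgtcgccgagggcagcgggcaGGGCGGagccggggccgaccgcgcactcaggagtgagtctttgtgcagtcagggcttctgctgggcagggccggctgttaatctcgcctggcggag
DSG2: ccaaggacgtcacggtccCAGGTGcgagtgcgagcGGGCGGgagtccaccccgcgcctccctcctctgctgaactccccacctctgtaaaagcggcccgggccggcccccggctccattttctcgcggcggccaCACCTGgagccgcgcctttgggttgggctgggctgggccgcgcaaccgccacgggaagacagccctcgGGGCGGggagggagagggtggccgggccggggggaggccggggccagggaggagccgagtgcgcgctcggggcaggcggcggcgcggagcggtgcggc
DSG2 held 2 E-box cores, 232 and 116 bases before its start, DSC2 held 1 at 156 bases before, and this JUP window held 0. JUP held 3 GC boxes, DSG2 held 2 and DSC2 held 1. Of all 35116 promoter windows of this length in the table, 20.6% held the E-box core and 45% the GC box. The full androgen response element (the letters AGAACA, any 3 bases and TGTTCT), its core AGAACA alone (in 14.8% of all windows), the forkhead motif TGTTTAC (3.42%) and the Grainyhead-like motif AACCGGTT (0.134%) were searched on both strands and were not in these windows; the full androgen element was in 1 of the 35116. The GC boxes and E-box cores did not overlap. A window was found for 6 of the 10 genes. A second annotated start of JUP had 2 E-box cores and 0 GC boxes in its window. A second start of DSC2 had 1 forkhead match, 0 E-box cores and 2 GC boxes. The base composition of the windows shown was 65.3% G and C for JUP, 60.7% for DSC2 and 76.7% for DSG2, against a median of 58.7% over all windows.

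FKBP5 was higher in each DHT group than in vehicle, and luminal markers had high signals. FKBP5, a co-chaperone of steroid receptors induced by androgens, rose by 0.98 at 4 h, 2.45 at 16 h and 3.34 at 48 h on the log2 scale (limma adjusted p = 0.00315, 1.6e-07 and 6.1e-09). The 4 h call was lost without either 4 h array and with the mean of its probe sets (limma adjusted p = 0.326 with the mean). Its other probe sets gave 0.87 and 0.92 at 4 h with no call. The mean log2 signal of 8 luminal markers was 13.40 to 13.47 in the vehicle arrays and 13.24 at 48 h, and 9 mesenchymal markers gave 7.59 to 7.63 and 7.66 to 7.68, with 0 of 9 called by limma at each time (0 also at an unadjusted p below 0.05). Immune and endothelial markers (4 measured genes each) likewise had 0 called by limma, with 1 immune gene at an unadjusted p below 0.05 at 4 h (1550 of all 19775 genes). Replicates correlated across genes at r = 0.995 to 0.997, where genes are not independent replicates. DHT 16 h replicate 2 stood apart in the difference between the 3′ and 5′ control probe sets of ACTB, a sign of RNA quality, at 1.52 log2 units against 0.20 to 0.94 in the other 7 arrays. Results at 16 h are therefore given without it where that matters.

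By 48 h of DHT 3 of the 10 junction genes had fallen and 1 had risen. JUP fell 1.62-fold, CDH3 1.45-fold and CDH1 1.35-fold, while DSG2 rose 1.54-fold. At 16 h JUP and CDH1 had fallen, and at 4 h 0 of 10 were called by limma, with 3 at an unadjusted p below 0.05. Over all 19775 genes, 1550 had an unadjusted limma p below 0.05 at 4 h, 3930 at 16 h and 4342 at 48 h. A gene was called where the limma p, adjusted by Benjamini-Hochberg over all 19775 genes, was below 0.05. The p-values rest on the spread between 2 replicates of a group, pooled over the 4 groups. Limma also draws this spread toward that of the other genes. The share of all genes called was 0.177% at 4 h, 6.85% at 16 h and 9.51% at 48 h, against 0, 2 and 4 of the 10. By direction, 2.55% of all genes were higher and 4.30% lower at 16 h, and 3.13% higher and 6.38% lower at 48 h. The median log2 change of the 10 was -0.03, 0.02 and -0.05 at the 3 times, beside 0.00, 0.02 and 0.01 over all genes. Their median absolute change was 0.12, 0.21 and 0.20, beside 0.08, 0.11 and 0.12 for all genes. With so few members these counts describe the list and set it apart from nothing.

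**Figure D1:**
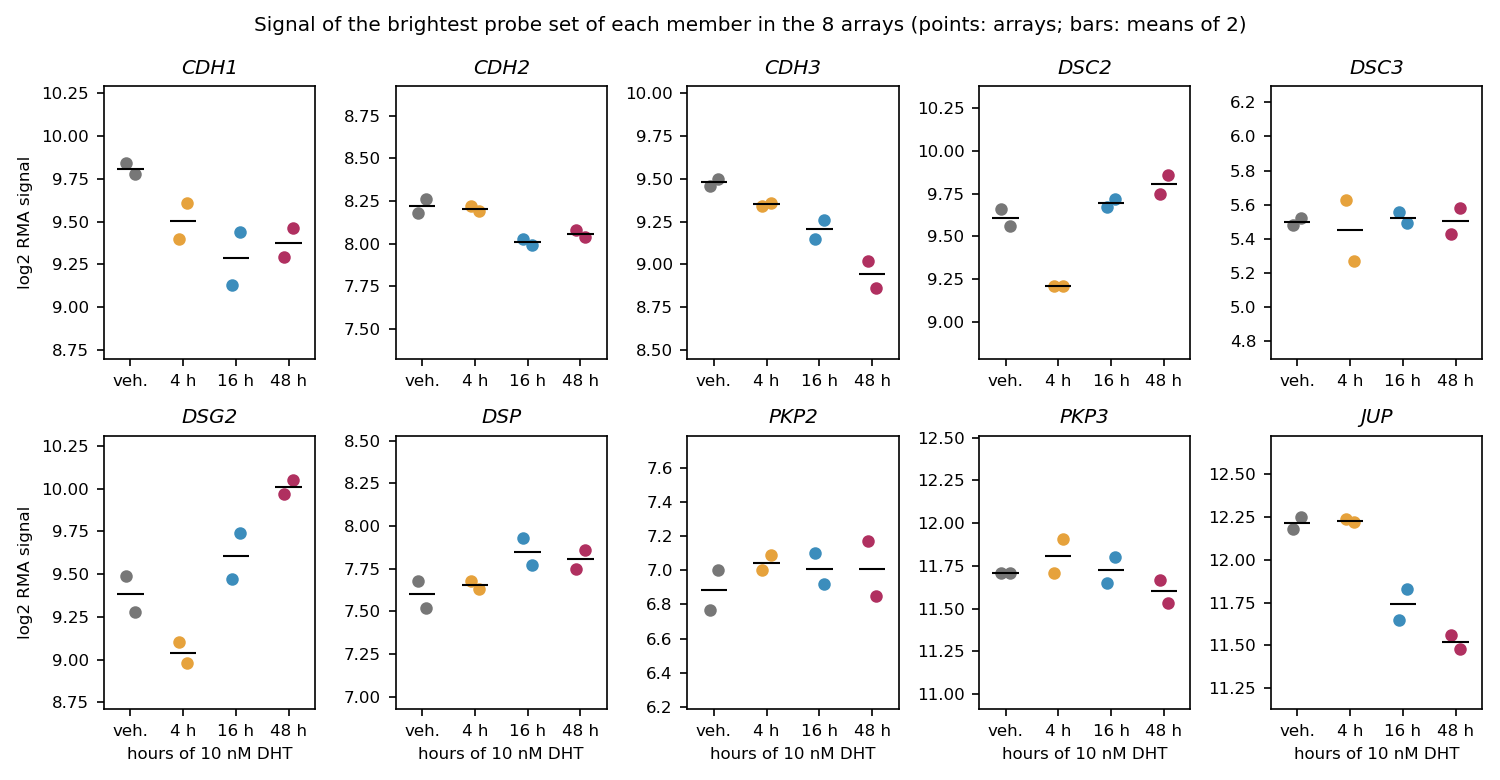
Log2 signal (vertical axis) of the brightest probe set of each of the 10 genes in each array (points, 2 per group), with the mean of each group as a bar, for vehicle and for 4, 16 and 48 h of 10 nM DHT; each panel spans 1.6 log2 units around its gene's mean. JUP lies at 12.18 to 12.25 in vehicle and 11.48 to 11.56 at 48 h, and DSG2 dips to 8.98 to 9.10 at 4 h before reaching 9.97 to 10.05 at 48 h.

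Among the classical cadherins, the RNA signals of CDH1 and CDH3 both fell, and protein was not measured. At 48 h the call of CDH1 held in fewer settings than that of CDH3. CDH1 read 9.84 and 9.78 in vehicle, 9.40 and 9.61 at 4 h, 9.13 and 9.44 at 16 h, and 9.29 and 9.46 at 48 h. All 6 DHT arrays lay below both vehicle arrays, and the 3 DHT groups overlapped one another. The log2 change was -0.30 ± 0.12 (SE, n = 2) at 4 h without a call (limma adjusted p = 0.576), -0.53 ± 0.12 at 16 h (0.0241) and -0.44 ± 0.12 at 48 h (0.0461). In order of level the groups ran vehicle, 4 h, 48 h and 16 h. No neighbours in that order were called apart by limma (adjusted p = 0.576, 0.689 and 0.885). The unadjusted limma p was 0.0300 for 4 h against vehicle, whose arrays did not overlap. It was 0.298 for 48 h against 4 h and 0.468 for 48 h against 16 h. At 16 h the call was lost without vehicle replicate 1, vehicle replicate 2 or DHT 16 h replicate 1 (adjusted p = 0.163, 0.0718 and 0.108 by limma), and it held without DHT 16 h replicate 2 (-0.68, 0.0110). At 48 h it was lost without any vehicle, 4 h or 48 h array, with limma adjusted p from 0.0604 to 0.318. The dimmer CDH1 probe set gave changes of -0.10, -0.59 and -0.29 at the 3 times, with no call (adjusted p = 0.966, 0.211 and 0.556 over all probe sets).

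CDH3 had its lowest level at 48 h, where it had fallen. It read 9.46 and 9.50 in vehicle, 9.34 and 9.36 at 4 h, 9.15 and 9.26 at 16 h, and 9.02 and 8.86 at 48 h. The arrays of each group lay below those of the group before it, with no overlap between any of the 4 groups. The changes were -0.13 ± 0.10 at 4 h (limma adjusted p = 0.793), -0.28 ± 0.10 at 16 h (0.125) and -0.54 ± 0.10 at 48 h (0.00417), so the call was made at 48 h. The call at 48 h held without each array in turn, with changes from -0.62 to -0.46 and a highest adjusted p of 0.0429 by limma. The level at 48 h was also below that at 4 h (-0.41 ± 0.10, limma adjusted p = 0.0268), a call lost without either 4 h array or either 48 h array (adjusted p = 0.158 and 0.167, and 0.0535 and 0.185). CDH3 had 1 probe set. CDH3 and CDH1 lie next to each other on chromosome 16.

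CDH2, the cadherin of mesenchymal and neural cells, was not called at any time with its brightest probe set. It read 8.18 and 8.26 in vehicle, 8.22 and 8.19 at 4 h, 8.03 and 7.99 at 16 h, and 8.08 and 8.04 at 48 h. All 4 arrays of 16 h and 48 h lay below the vehicle and 4 h arrays, with changes of -0.21 and -0.16 against vehicle (limma adjusted p = 0.213 and 0.320). The 95% interval of its log2 change was -0.40 to -0.01 at 16 h and -0.35 to 0.03 at 48 h. Its other probe set read 6.83 and 6.90 in vehicle and 6.37 and 6.42 at 48 h, a change of -0.47 ± 0.10 that passed the test over all probe sets (limma adjusted p = 0.0305; 5.16% of these probe sets were called). No cadherin of the 3 rose by either measure.

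Among the desmosomal cadherins, the brightest probe sets of DSG2 and DSC2 had their lowest mean at 4 h and their highest at 48 h. Neither gene was called at 4 h against vehicle, and at 48 h DSG2 was called and DSC2 was not. DSG2, the desmoglein of simple epithelia, read 9.49 and 9.28 in vehicle, 9.10 and 8.98 at 4 h, 9.47 and 9.74 at 16 h, and 9.97 and 10.05 at 48 h. Both 4 h arrays lay below vehicle, both 48 h arrays lay above every other array, and the 16 h arrays overlapped vehicle. The change against vehicle was -0.34 ± 0.12 at 4 h (limma adjusted p = 0.481), 0.22 ± 0.12 at 16 h (0.327) and 0.62 ± 0.12 at 48 h (0.00556). The rise at 48 h kept its call without each array in turn (0.52 to 0.73, highest adjusted p = 0.0495). Against 4 h, DSG2 was 1.48-fold higher at 16 h (0.57 ± 0.12, limma adjusted p = 0.0235) and 1.96-fold higher at 48 h (0.97 ± 0.12, 4.0e-04). The difference between 16 h and 4 h was lost without DHT 4 h replicate 1, DHT 4 h replicate 2 or DHT 16 h replicate 2 (0.63, 0.50 and 0.43, adjusted p = 0.117, 0.201 and 0.142). In order of level the groups ran 4 h, vehicle, 16 h and 48 h, and no neighbours were called apart (limma adjusted p = 0.481, 0.327 and 0.187).

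DSC2, the desmocollin partner of DSG2, read 9.66 and 9.56 in vehicle, 9.21 in both arrays at 4 h, 9.67 and 9.72 at 16 h, and 9.75 and 9.86 at 48 h. The 4 h arrays lay below all the others, and the 16 h and 48 h arrays lay just above vehicle. Against vehicle its change was -0.40 ± 0.09 at 4 h (limma adjusted p = 0.185), 0.09 ± 0.09 at 16 h (0.659) and 0.20 ± 0.09 at 48 h (0.232), so it was not called in any comparison with vehicle. Between DHT times it was called: 0.49 ± 0.09 higher at 16 h than at 4 h (limma adjusted p = 0.0167) and 0.60 ± 0.09 higher at 48 h than at 4 h (0.00245). The 16 h difference was lost without DHT 4 h replicate 1, DHT 4 h replicate 2 or DHT 16 h replicate 2 (adjusted p = 0.141, 0.121 and 0.0709), and the 48 h difference held without each array in turn (highest 0.0326). With the mean of the DSC2 probe sets the difference between 48 h and 4 h was 0.39 and its call was lost (limma adjusted p = 0.0675). Over the 8 arrays DSC2 and DSG2 had a Pearson correlation of 0.92, a description of arrays that fall into 4 groups.

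The genes for DSC2 and DSG2 lie in a run of desmosomal cadherins on chromosome 18, in the order DSC3, DSC2, DSC1, DSG1, DSG4, DSG3 and DSG2. DSC3, the desmocollin of basal layers of stratified epithelium, read 5.27 to 5.63 over the 8 arrays, and its other 2 probe sets 5.21 to 5.70. These signals lie near the low end of the arrays, whose values ran from 3.68 to 15.6, and no detection call was used here. Its changes were -0.05, 0.03 and 0.00, with 95% intervals that reached no further than -0.31 and 0.29. DSC1, DSG1 and DSG4, which belong to the upper layers of skin and to hair, had changes from -0.11 to 0.15 against vehicle, and DSG3 -0.08, -0.11 and -0.01, with 0 of these 4 genes called by limma.

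**Figure D2:**
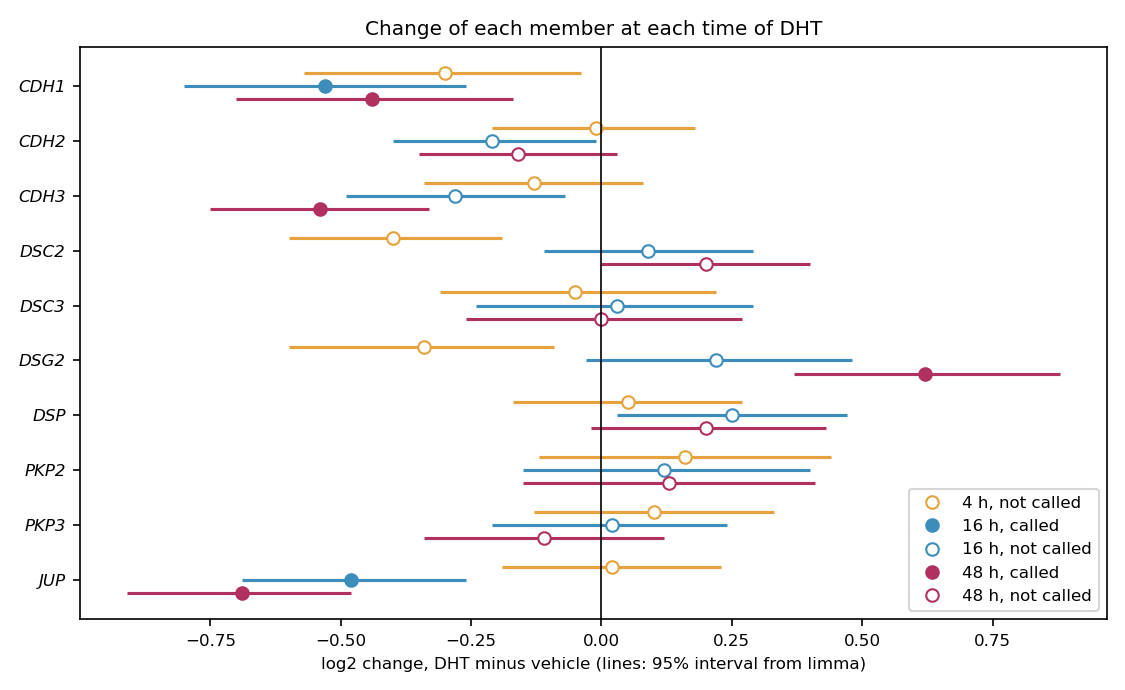
Log2 change against vehicle (horizontal axis) of each of the 10 genes after 4, 16 and 48 h of DHT, as points with 95% intervals from limma; filled points passed an adjusted p of 0.05 over all genes. JUP (-0.69), CDH3 (-0.54) and CDH1 (-0.44) are filled below 0 at 48 h, DSG2 (0.62) is filled above 0, and the intervals of DSC3, PKP2 and PKP3 span 0 at all 3 times.

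In the plaque, JUP showed the largest fall of the 10 genes at 48 h. Plakoglobin is the armadillo protein that binds the tails of desmosomal and classical cadherins. JUP read 12.18 and 12.25 in vehicle, 12.24 and 12.22 at 4 h, 11.65 and 11.83 at 16 h, and 11.56 and 11.48 at 48 h. Vehicle and 4 h arrays overlapped, the 16 h arrays lay below them and the 48 h arrays lay lowest. The change was 0.02 ± 0.10 at 4 h (limma adjusted p = 0.982), -0.48 ± 0.10 at 16 h (0.0125) and -0.69 ± 0.10 at 48 h (8.5e-04). The 48 h call held without each array in turn (-0.73 to -0.65, highest adjusted p = 0.0128). The 16 h call was lost without vehicle replicate 1, vehicle replicate 2 or DHT 16 h replicate 1 (adjusted p = 0.0588, 0.0744 and 0.0563), and it held without DHT 16 h replicate 2 (-0.57, 0.0128). JUP was also lower at 16 h and at 48 h than at 4 h (-0.49 and -0.71, limma adjusted p = 0.0197 and 0.00106); the first of these was lost without either 4 h array or DHT 16 h replicate 1 (0.163, 0.128 and 0.0597). JUP had 1 probe set, whose _s_at suffix marks probes shared by several transcripts.

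The other plaque genes were not called in any comparison. DSP, desmoplakin, read 7.68 and 7.52 in vehicle, 7.68 and 7.63 at 4 h, 7.93 and 7.77 at 16 h, and 7.75 and 7.86 at 48 h. The 16 h and 48 h arrays lay above both vehicle arrays, with changes of 0.25 and 0.20 (limma adjusted p = 0.195 and 0.268). PKP3, a plakophilin found in all layers of epithelium, read 11.71 in both vehicle arrays and 11.53 to 11.91 with DHT, and its 95% interval at 48 h was -0.34 to 0.12. Its other probe set read 10.37 and 10.09 in vehicle and 10.47 and 10.92 at 4 h, a change of 0.47 with no call (limma adjusted p = 0.850). PKP2, the plakophilin best known from heart, read 6.77 and 7.00 in vehicle and 6.85 to 7.17 with DHT, and its dimmer probe set 4.83 to 5.08 over all arrays. Its interval at 48 h was -0.15 to 0.41.

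The arrays of DHT and vehicle did not overlap for 6 of 10 genes at 4 h, 6 at 16 h and 8 at 48 h. Among all genes the share without overlap was 40.2%, 47.0% and 51.8%, so at 4 h and 16 h the members' share was not far from that of any gene. Between DHT times 3 of 10 members were called at 16 h against 4 h (background 3.05%), 4 at 48 h against 4 h (6.13%) and 0 at 48 h against 16 h (0.829%), where 3 had an unadjusted limma p below 0.05 (2125 of all 19775 genes). These comparisons and those with vehicle share arrays. A moderated F test over the 3 times called JUP, DSG2, DSC2 and CDH3 (limma adjusted p = 0.00112, 0.00152, 0.00633 and 0.0163; 8.90% of all genes) and left CDH1 at 0.0614. In bulk RNA, fewer cells with a transcript and less of it per cell cannot be told apart.

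Probe sets of the same gene did not always move together, and DHT 16 h replicate 2 stood out among them. It was the lowest of the 8 arrays in 5 of the 10 dimmer probe sets of these genes and in 1 of the 10 brightest, against 16.8% of all probe sets. The second probe set of DSG2 read 7.28 and 6.90 in vehicle, 7.21 and 7.11 at 4 h, 7.54 and 6.21 at 16 h, and 7.60 and 7.78 at 48 h. The 48 h arrays were again the highest (change 0.60 ± 0.34, limma adjusted p = 0.417), whereas at 4 h there was no dip (0.07) and the 16 h arrays lay 1.33 log2 units apart. For DSC2, 2 of the 3 other probe sets gave 0.66 and 0.28 at 48 h against 4 h with no overlap between the groups and no call (limma adjusted p = 0.316 and 0.456), and the dimmest gave 0.03. At 16 h against 4 h these 3 gave only 0.04, 0.00 and 0.08, with no call (limma adjusted p = 0.977, 0.998 and 0.832). The second probe set of DSG2 gave -0.28 in that comparison (limma adjusted p = 0.831). At 4 h against vehicle the 3 of DSC2 gave -0.26, -0.18 and 0.00, each overlapping vehicle. The part of the 3′ to 5′ difference in these probe sets was not tested.

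**Figure D3:**
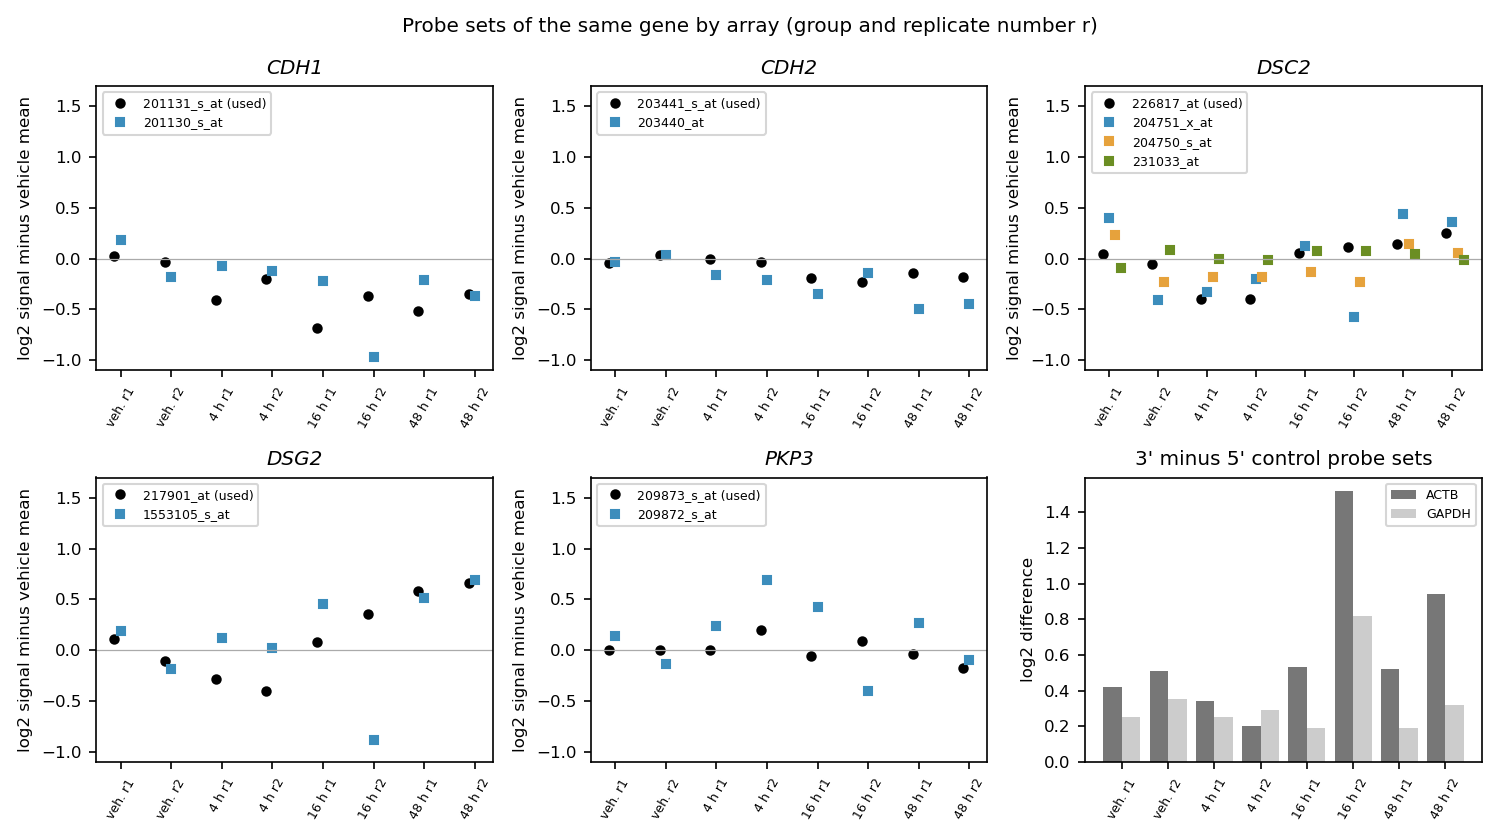
Log2 signal minus the mean of the 2 vehicle arrays (vertical axis) for every probe set of CDH1, CDH2, DSC2, DSG2 and PKP3 in each of the 8 arrays, black circles marking the probe set used and squares the others, with the 3′ minus 5′ difference of the ACTB and GAPDH control probe sets per array as bars. DHT 16 h replicate 2 has the largest control differences (1.52 and 0.82) and the lowest value of the second probe sets of CDH1 (6.03), DSG2 (6.21) and PKP3 (9.83).

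Of the genes whose products work beside these 10, vinculin and δ-catenin fell furthest at 48 h. Among 60 measured genes in 6 lists, 0 were called by limma at 4 h (7 at an unadjusted p below 0.05), 1 rose and 5 fell at 16 h, and 3 rose and 7 fell at 48 h, where 6.85% and 9.51% of all genes were called at 16 h and 48 h. At 4 h 1550 of all 19775 genes had an unadjusted limma p below 0.05. In the list of adherens junction partners, 0 of 14 rose and 3 fell at 16 h and at 48 h. VCL, vinculin, which links catenins to actin, read 12.81 and 13.07 in vehicle and 10.97 and 11.08 at 48 h (change -1.91 ± 0.10, limma adjusted p = 7.1e-07), while its dimmer probe set gave -0.09. CTNND2, δ-catenin, fell by 2.03 at 48 h (adjusted p = 1.9e-07) and a second probe set fell by 1.38 (0.00282), but the remaining one gave 0.37 with no call. NECTIN4, an immunoglobulin-type adhesion protein, fell by 0.54 at 16 h and 0.47 at 48 h; the 16 h call was lost without vehicle replicate 2 or DHT 16 h replicate 2 and the 48 h call without either vehicle array or DHT 48 h replicate 2 (adjusted p up to 0.0629 and 0.107 by limma). CTNNB1 and CTNNA1, β-catenin and α-catenin, were not called at any of the 3 times: CTNNB1 had changes of 0.05, 0.16 and -0.02 and CTNNA1 of -0.06, -0.07 and -0.03.

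In the list of other desmosome genes 1 of 9 rose and 1 fell at 48 h, and 0 were called by limma at 16 h, with 1 at an unadjusted p below 0.05 (3930 of all 19775 genes). PERP, a membrane protein that supports desmosomes, rose by 0.39 (limma adjusted p = 0.0172), while its 4 dimmer probe sets showed 0.30, 0.13, 0.12 and 0.06 with no call. The PERP call was also lost, at 0.06 (adjusted p = 0.794), when another probe set was used, and with the mean of its probe sets. PPL, periplakin, a keratin linker of the plakin family, fell by 0.40 (0.0292). Both calls were lost without either vehicle or either 48 h array, and that of PPL also without either 4 h array (adjusted p up to 0.110 and 0.199). The list of other cadherins had 0 of 17 called by limma at each time, with 1, 3 and 2 at an unadjusted p below 0.05, and changes at 48 h from -0.35 to 0.21. Of all 19775 genes, 1550, 3930 and 4342 had such a p at 4, 16 and 48 h.

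Regulators of these junctions were followed in 3 lists. Of 6 EMT transcription factors (repressors of CDH1 such as SNAI1, SNAI2, ZEB1 and ZEB2), 0 were called by limma at each time, and 0 had an unadjusted p below 0.05; at 48 h the changes of these 4 were 0.17, -0.07, -0.17 and 0.24. Of 8 regulators of epithelial junctions, 0 were called by limma at 4 h, with 5 at an unadjusted p below 0.05, beside 1550 of all 19775 genes. In this list 1 rose and 2 fell at 16 h, and 1 rose and 3 fell at 48 h. GRHL3 and GRHL1, Grainyhead-like activators of epithelial adhesion genes, read 9.98 and 9.79, and 10.63 and 10.61, in vehicle. At 48 h GRHL3 read 8.83 and 8.86 and GRHL1 9.69 and 9.90, changes of -1.04 and -0.83 (limma adjusted p = 4.4e-05 and 2.6e-04). The dimmer probe set of GRHL1 gave -0.71 at 16 h and -0.50 at 48 h with no call (limma adjusted p = 0.126 and 0.263 over all probe sets). The 16 h call of GRHL3 (-0.52) was lost without vehicle replicate 1 (adjusted p = 0.0950). GRHL2 of the same family gave 0.18 at 48 h with no call. OVOL1, a zinc-finger epithelial factor, fell by 0.55 at 48 h, a call lost without vehicle replicate 1 or DHT 48 h replicate 2 (adjusted p up to 0.0626), and its dimmer probe set gave 0.00. EHF, an ETS factor of epithelia, rose by 0.48 at 16 h and 0.46 at 48 h; both calls were lost without vehicle replicate 2, and the first also without DHT 16 h replicate 2 and the second without DHT 48 h replicate 2 (adjusted p up to 0.0928 and 0.107). Both EHF calls were also lost with the mean of its probe sets (0.14 and 0.61, limma adjusted p = 0.797 and 0.153), and the other 5 probe sets gave -0.57 to 0.59 at 16 h with no call. In the list of cadherin shedding and turnover, ADAM15, a membrane protease, was the 1 of 6 called (0.63 at 48 h, lost without vehicle replicate 1 or DHT 48 h replicate 1, adjusted p up to 0.163).

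**Figure D4:**
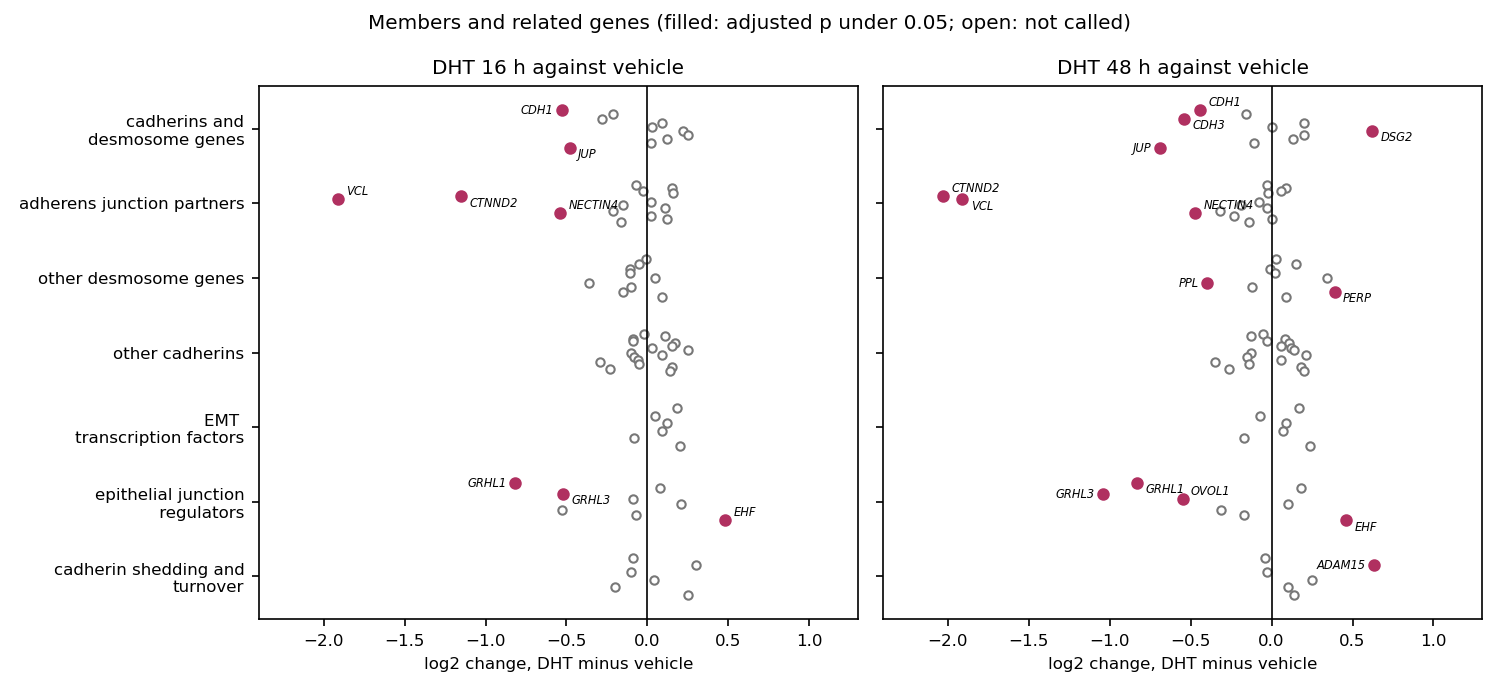
Log2 change against vehicle (horizontal axis) at 16 h (left) and 48 h (right) for the 10 cadherin and desmosome genes and for 6 lists of related genes; each point is a gene, and filled points passed a limma adjusted p of 0.05 and are named. VCL and CTNND2 lie furthest below 0 at 48 h (-1.91 and -2.03), and the lists of other cadherins and EMT transcription factors have no filled point.

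Some luminal markers, and 1 of the 2 basal markers read here from a list of 6, also differed at 48 h. GATA3 and FOXA1, which set luminal identity, fell by 0.85 and 0.72 (limma adjusted p = 1.3e-04 and 6.4e-04), the receptor ERBB2 fell by 0.65 and the simple-epithelial keratin KRT19 rose by 0.68. The ERBB2 call was lost with the mean of its probe sets (-0.41, limma adjusted p = 0.434); the 2 dimmer ones had changes of -0.31 and -0.29 with no call. The 8 luminal markers measured had 1 higher and 3 lower at 48 h, where 3.13% of all genes were higher and 6.38% lower. At 16 h 2 of these markers were higher and 1 was lower, beside 2.55% and 4.30% of all genes. KRT5, a basal keratin, read 8.13 and 8.18 in vehicle and 8.71 and 8.61 at 48 h (0.51, limma adjusted p = 0.00666), a call lost without vehicle replicate 1 or DHT 48 h replicate 1 (0.0617 and 0.0760), and KRT14, the other basal marker measured, was not called. The mean signal of the 2 basal markers was 6.92 to 7.21 in vehicle and 7.36 to 7.40 at 48 h. Their part in the changes of the junction genes was not tested.

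For each gene called against vehicle, the genes with the most similar course over the 8 arrays were sought among the 1760 that passed the F test. JUP was most like PLK1 and ASF1B (Pearson r = 0.998 and 0.994), CDH3 like TP53I3 and NPR3 (0.992 and 0.987), DSG2 like CPD and DDAH1 (0.973 for both), and CDH1 like BRD8 and BLCAP (0.967 and 0.966). These values describe 8 arrays in 4 groups and carry no test. Among the junction genes themselves CDH3 and JUP had the highest such correlation (0.93), followed by DSC2 and DSG2 (0.92) and CDH2 and JUP (0.86).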

How the data were processed

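Total RNA from 8 cultures was hybridised to Affymetrix arrays. The deposited values are log2 signals normalised with RMA, per the submitters' processing notes; its version is not given here. Of 54675 probe sets, 62 controls were set aside, 41091 had 1 gene symbol, 1801 several and 11721 none in the platform annotation, which can be old, and symbols were matched to RefSeq. Each gene was read by its probe set with the highest mean. One limma 3.58.1 model (R 4.3.3) took in every array and gave each of the 4 groups its own mean (4 residual and 7.21 prior degrees of freedom), two-sided, with Benjamini-Hochberg adjustment over 19775 genes. A separate fit over all 41091 probe sets gave the values of other probe sets. With 2 arrays a group, the smallest p of an exact permutation test is 0.333, so none was run. Errors are limma standard errors; the number of arrays limits precision. The script was tested on simulated data.

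The 10 genes and the lists were chosen with earlier results of these data known. All 10 are named; of each list, up to 4 called genes with the largest change are named, and other genes of the lists were named after their values were seen. The replicate numbers were not used as pairs: deviations of same-numbered arrays correlated between -0.24 and 0.20. Some genes of the lists are not analysed here.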

Additional observations from a re-analysis of the deposited data

Results flagged for a closer look

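The signal differed between times of DHT, by the limma test of the difference itself (adjusted p below 0.05), for these junction genes. At 16 h against 4 h the log2 difference was 0.49 for DSC2, 0.57 for DSG2 and -0.49 for JUP. The other probe sets gave 0.00 to 0.08 for DSC2 and -0.28 for DSG2 in that comparison, with no call. At 48 h against 4 h it was 0.60 for DSC2, 0.97 for DSG2, -0.41 for CDH3 and -0.71 for JUP. The DSC2 call there was lost with the mean of its probe sets (0.39).

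Related genes and markers named above differed in the same way. At 16 h against 4 h the log2 difference was -1.15 for CTNND2, -1.90 for VCL, 0.63 for KRT19 and 1.47 for FKBP5. At 48 h against 16 h it was -0.88 for CTNND2, 0.54 for PERP, -0.52 for GRHL3, -0.53 for GATA3, -0.53 for FOXA1 and 0.88 for FKBP5. Of these, GRHL3, GATA3 and FOXA1 each lost the call in 9 of 19 other settings, 5 of them without 1 array (adjusted p up to 0.259, 0.214 and 0.274 by limma), and PERP lost it in 7. FOXA1 gave -0.21 with the mean of its probe sets and PERP 0.05 with another probe set. At 48 h against 4 h the value was -2.03 for CTNND2, -1.90 for VCL, 0.59 for PERP, -0.69 for GRHL3, -0.40 for GRHL1 and -0.51 for OVOL1. The GRHL1 call was lost without any of 5 single arrays (limma adjusted p up to 0.275), the OVOL1 call without any of 3 (up to 0.121), and PERP gave 0.07 with another probe set. In that comparison it was -0.61 for GATA3, 0.73 for KRT19, -0.53 for ERBB2, 0.62 for KRT5 and 2.36 for FKBP5. Without DHT 4 h replicate 1 the calls of ERBB2 here and of KRT19 at 16 h against 4 h were lost (limma adjusted p = 0.0716 and 0.0637), and with the mean of probe sets those of ERBB2 here and of FKBP5 at 16 h against 4 h were (0.459 and 0.0581).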

How the results depend on the processing

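For the 10 junction genes, 1070 of the changes recomputed under other settings stayed on the same side of the threshold, 44 lost a call, 2 gained one and 0 of the called changes turned. Most of the changes recomputed were not called with all arrays and so had no call to lose. All 44 losses fell on the minority that were called. Some uncalled changes near 0 changed sign. The calls of JUP, CDH3 and DSG2 at 48 h against vehicle held in all 19 other settings run. Settings that change the probe set could not alter the signal of JUP and CDH3, which have 1 probe set each. Avoiding _s_at and _x_at probe sets likewise left DSG2 read by the same one. Without 1 array at a time the number of junction genes called ran from 0 to 0 at 4 h, 0 to 2 at 16 h and 3 to 4 at 48 h against vehicle, 0 to 3 for 16 h against 4 h, 0 to 0 for 48 h against 16 h, 3 to 4 for 48 h against 4 h and 3 to 5 for the F test. At 16 h against vehicle the count of 2 became 1 with all probe sets tested and 0 with only the compared groups in the fit. At 16 h against 4 h the count of 3 became 0 with all probe sets tested, 1 with the mean of a gene's probe sets and 1 with only the compared groups. It also became 1 with the ACTB 3′ to 5′ difference as a covariate, a setting chosen after seeing the data. The cause was not tested. CDH2 gained a call at 48 h when read by its other probe set (-0.47) and by the mean of both. The call of CDH1 at 48 h was lost with re-quantiled values and with arrays shifted to equal medians, among 11 of 19 settings. CTNND2, read by another probe set in place of the _s_at one, turned to 0.26 at 16 h and 0.37 at 48 h against vehicle, 0.04 for 16 h against 4 h, 0.10 for 48 h against 16 h and 0.15 for 48 h against 4 h. A replicate block left the counts at 0, 2 and 4 against vehicle and gave 5 in place of 4 by the F test; nothing in the labels pairs the numbers. Dim signals such as DSC3 are limited by background.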
